A study of Rattus norvegicus with 144 samples.

Results

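Nicotine was compared with saline in 1 brain region, the prefrontal cortex (PFC), of rats of the HIV-1Tg strain. Its members were the 12 nicotine libraries (HIV_Nic) and the 12 saline libraries (HIV_Sal) of this strain and region, which are 24 of the 144 samples of the study. The other samples came from the hippocampus (HIP) and striatum (STR) of the same strain and from all 3 regions of F344 rats, the background strain, treated in the same way. All rats were adult males. For 17 days, HIV_Nic rats were injected under the skin 2 times a day with nicotine at 0.25 mg/ml, in a volume of 1 ml/kg, and HIV_Sal rats with saline. Both groups carry the HIV-1 transgene, a provirus that lacks gag and pol, cannot replicate, and is driven by the viral long terminal repeat in every cell that can use that promoter. The tissue was punched from the brain, and the same animals had been used in a behavioral study. These are bulk samples, so fewer cells of a type and less RNA per cell cannot be told apart.

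The PFC serves working memory and the control of drug seeking. Nicotine acts there on nicotinic acetylcholine receptors, cation channels on pyramidal neurons, interneurons, and incoming terminals, which set the release of glutamate, GABA, and dopamine. HIV-1Tg rats express viral proteins such as Tat, Nef, and gp120 without an active infection and are used as a model of the brain under long antiretroviral treatment. Wnt ligands signal through Frizzled receptors to block the complex, built on the scaffold Axin, that destroys beta-catenin, and Eph receptors bind ephrins on neighboring cells at synapses. The study asked, across the transcriptome, whether nicotine brings genes that are altered in HIV-1Tg rats back toward their level in F344 rats. The comparison of nicotine with saline within HIV-1Tg rats is 1 part of that question.

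No transcript in the PFC of HIV-1Tg rats differed between nicotine and saline after adjustment for the number tested, either with all rats or without HIV_Nic rats 10 and 11. This count of 0 depended on the processing, since 27 transcripts passed once values near 0 and outliers were removed, and 1 or 2 passed under some other settings. By the unadjusted criterion (fold over 1.2, p under 0.05), the transcripts identified here as those of Axin1 and Wnt7a were higher with nicotine in both sets of rats, and the Axin1 call was lost when only the 24 HIV-1Tg samples were fitted. The summed level of the exactly and partly matching assembled transcripts of each of these genes did not pass the test. With all rats, short transcripts were mostly higher and long ones mostly lower in HIV_Nic rats, a pattern that was not present once rats 10 and 11 were left out. Of the 4 transcripts of smallest p given below, 3 were listed at widely different lengths in different rats, and for 2 of these the locus total did not pass.

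Values are FPKM, the number of fragments scaled by transcript length and by the mapped fragments of the library, as Cufflinks assembled and estimated them separately in each library. Transcripts were tested where 6 or more of the 12 rats in each group exceeded an FPKM of 0.01, which left 14715 of the 39085 transcripts that matched an annotated transcript exactly. They belong to 13873 genes. Each was tested with limma on log2(FPKM + 0.1). On this scale a fold change can be smaller than that of the FPKM where levels are low throughout, and larger than that of the group means where single rats are at 0. A transcript is said to have risen or fallen where the fold change exceeded 1.2 and the unadjusted p was under 0.05. The study set the same limits on fold and p but applied them after an ANOVA with a Tukey-Kramer post-hoc test and the removal of outliers, so the criterion here is not the same. It takes no account of the number of transcripts tested, and p-values adjusted by the method of Benjamini and Hochberg are given beside it.

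With all 24 rats, 955 of 14715 transcripts (6.49%) passed the unadjusted threshold, of which 467 (3.17%) rose and 488 (3.32%) fell. By p alone, 1014 transcripts (6.89%) were under 0.05. After adjustment limma called 0 transcripts, and the smallest adjusted p was 0.0676. Without HIV_Nic rats 10 and 11, 605 transcripts (4.11%) passed, with 309 (2.1%) higher and 296 (2.01%) lower. By p alone these were 653 transcripts (4.44%), fewer than the 5% that stand under 0.05 by definition of the threshold when groups do not differ. The adjusted call was again 0 transcripts, with a smallest adjusted p of 0.0953. A total of 375 transcripts (2.55% of those tested) passed in the same direction both times, 190 (1.29%) of them higher and 185 (1.26%) lower. Of the calls made with all rats, 580 were lost without rats 10 and 11, 230 transcripts were called only without them, and 0 were called in opposite directions.

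Rats 10 and 11 of the HIV_Nic group stood apart from the other 22 HIV-1Tg rats by transcript length. For each library the median log2 deviation from the median of the HIV_Sal rats was taken over 10447 transcripts with a mean FPKM of at least 1. In rat 10 this median fell along the length classes, with 1.13 for transcripts under 700 bases, 0.72 from 700 up to 1500, 0.00 from 1500 up to 3000, -1.03 from 3000 up to 5000, and -2.88 for 5000 bases and over. In rat 11 the same medians were 0.77, 0.58, 0.27, -0.26, and -0.99. The other 22 rats lay between -0.08 and 0.10 in every class, and HIV_Nic and HIV_Sal rats overlapped there. The sum of FPKM over exactly matching transcripts was 293758 in rat 10 and 288098 in rat 11, above the range of 195219 to 211706 in the others. Rat 10 listed 5321 assembled transcripts between annotated genes and rat 11 listed 3178, against 1427 to 3365 in the other rats. Read numbers are not given in the tables used here, and base coverage per FPKM, a relative measure of depth, was 2.87 in both rats and 2.08 to 3.56 in the others. In the HIP and STR libraries numbered 10 and 11 of the same group the medians lay between -0.07 and 0.12. They fell with length in library 10 of both regions, from 0.09 to 0.01 in the HIP and from 0.12 to -0.05 in the STR. These gradients were far smaller than in the PFC, although that of STR library 10 was the steepest among the 24 HIV-1Tg STR libraries. The labels do not say that a number stands for the same rat in each region.

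**Figure D1:**
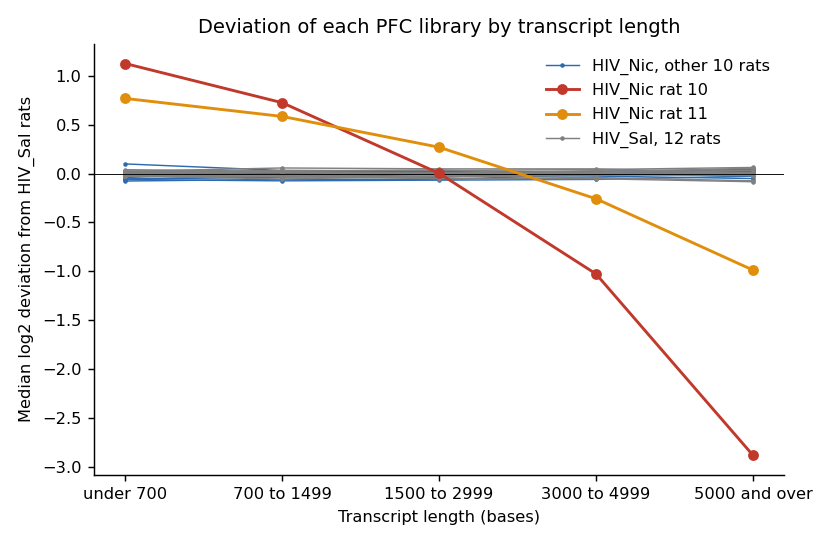
Median log2 deviation of each of the 24 HIV-1Tg PFC libraries from the HIV_Sal rats (vertical axis) in 5 classes of transcript length in bases (horizontal axis), 1 line per rat. HIV_Nic rat 10 runs from 1.13 to -2.88 and rat 11 from 0.77 to -0.99, while the other 22 rats lie between -0.08 and 0.10.

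The direction of the calls followed the same classes when all rats were used. Among 2043 transcripts under 700 bases, 98 (4.8%) rose and 39 (1.91%) fell, whereas among 1554 transcripts of 5000 bases and over, 18 (1.16%) rose and 110 (7.08%) fell. The median log2 fold change over all transcripts of a class went from 0.09 in the shortest to -0.23 in the longest. Without rats 10 and 11, 27 of the shortest (1.32%) rose and 37 (1.81%) fell, and 42 of the longest (2.7%) rose and 29 (1.87%) fell. The class medians were then -0.02 and 0.05. Of the 277 higher calls that were lost, 174 were of transcripts under 1500 bases and 21 of transcripts of 3000 bases and over, and of the 303 lower calls that were lost these were 50 and 200. Of the transcripts that passed both times, 23 of the shortest rose and 16 fell, and 9 of the longest rose and 24 fell. Passing both times includes passing with rats 10 and 11, so this lean cannot show a pattern apart from these rats. How far RNA quality or library preparation of these rats bears on the calls was not tested.

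**Figure D2:**
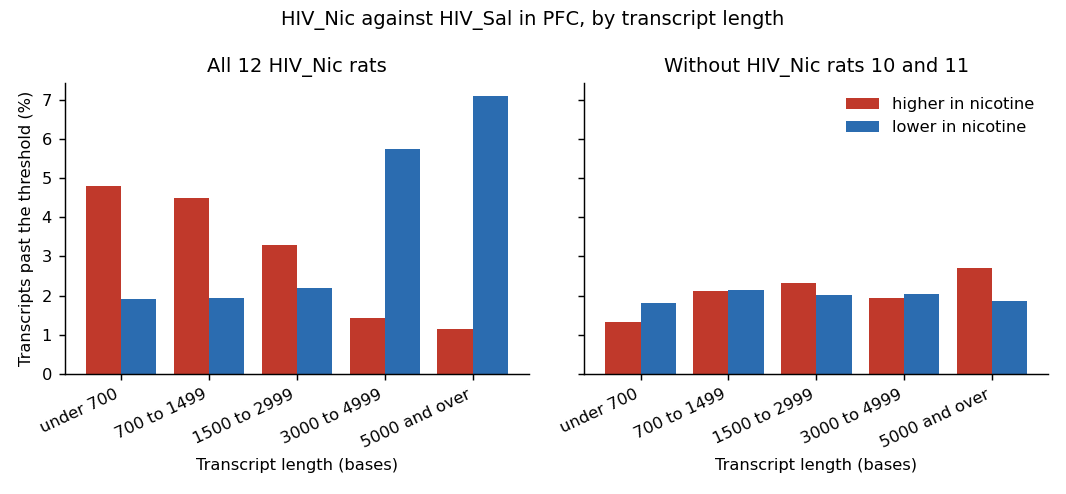
Percentage of tested transcripts past the unadjusted threshold (vertical axis) that were higher or lower in HIV_Nic rats, by transcript length in bases, with all rats on the left and without HIV_Nic rats 10 and 11 on the right. With all rats 7.08% of the longest transcripts were lower and 1.16% higher, and without the 2 rats 1.87% were lower and 2.7% higher.

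Many of the transcripts that passed had low values. Of the 605 called without rats 10 and 11, 418 (69.1%) had at least 1 rat at or under an FPKM of 0.01, against 8756 of all 14715 tested (59.5%), whereas of the 955 called with all rats the share was 58.3%. Among the 605, the median size of the log2 fold change was 1.11 for those with such a rat and 0.43 for the others. By mean level, 167 of the 605 were of transcripts under 1 FPKM and 76 were of transcripts at 20 FPKM and over, which are 3.91% and 3.6% of those classes. With all rats the shares were 4.33% and 8.14%, so that transcripts of high level were called more often only when rats 10 and 11 were included.

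The total of the gene changed less than the single transcripts that passed. For the locus total, FPKM was summed over all exact and partly matching assembled transcripts of a gene. Of the 605 transcripts called without rats 10 and 11, the locus total changed in the same direction in 482 and passed the threshold in that direction in 215 (35.5%), against 425 of all 14715 tested in the same rats. The median size of the log2 fold change was 0.80 for the 605 transcripts and 0.28 for their loci, and over all tested transcripts in the same rats it was 0.19 and 0.11. The 605 were chosen for the change of the transcript, which by itself makes the change of the locus the smaller one. Of the 375 transcripts called both times, 145 (38.7%) had a locus total that passed, and the medians were 0.85 and 0.33. When locus totals themselves were tested, 1104 of 16649 (6.63%) passed with all rats and 554 (3.33%) without rats 10 and 11. By p alone, 1456 (8.75%) and 816 (4.9%) were under 0.05, and limma called 0 after adjustment both times.

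The tables name transcripts by Ensembl identifier only, and genes were identified through 8 transcripts whose group means and errors, as the study states them for its pathway genes, matched 1 transcript each. Axin1, Wnt7a, Fgf9, and Ephb1 were reported by the study for the PFC. Ephb1 was also matched in the STR, as were Mdh1 and Rap1b, and Cflar and Plch1 were matched in the HIP. The study chose these genes on these samples, so that a difference in the PFC of the first 4 is not independent evidence. The same holds for a difference in the STR or HIP of a gene matched in that region. Of the 8 transcripts, Axin1 and Wnt7a rose both times, Cflar fell with all rats only, and 5 did not pass (6.49% and 4.11% of all transcripts passed). None of the 8 passed after adjustment, and the smallest adjusted p among them was 0.718 in limma.

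Axin1 encodes the scaffold of the complex that degrades beta-catenin and so restrains Wnt signaling. Its transcript ENSRNOT00000027705 ranged from 1.16 to 5.54 FPKM in HIV_Sal rats, with a median of 3.05, and from 1.19 to 7.84 in HIV_Nic rats, with a median of 4.74. The groups overlapped, and HIV_Nic rats 10 and 11 were at 2.54 and 3.47 FPKM, below most of their group. It rose by 0.61 ± 0.24 on the log2 scale (SE, n = 12, p = 0.0146, adjusted p = 0.718 in limma), and without rats 10 and 11 it was 0.72 ± 0.25 (p = 0.00637). This transcript made up a median of 48.4% of the locus total in HIV_Sal rats and 72.7% in HIV_Nic rats. A second transcript of the gene, ENSRNOT00000048663, averaged 1.36 ± 1.03 FPKM (SD, n = 12) in HIV_Sal and 0.783 ± 0.768 FPKM in HIV_Nic rats. The locus total averaged 6.49 ± 0.709 FPKM in HIV_Sal rats and 7.33 ± 1.64 FPKM in HIV_Nic rats. The 2 highest totals were those of rats 10 and 11, with rat 11 at 9.71 FPKM and rat 10 above it. For the total it was 0.15 ± 0.09 (SE) with all rats and 0.05 ± 0.08 without them, with a range of 2 SE from -0.12 to 0.21 for the latter, which does not include the change of the single transcript. The transcript itself did not pass when only the 24 HIV-1Tg samples were fitted (p = 0.0583 in limma), nor did the sum of exactly matching transcripts, at 0.30 (p = 0.0992).

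Wnt7a encodes a Wnt ligand with roles in synapse formation. The matched transcript differs from the annotated one, ENSRNOT00000009848, in part of its exons. It was listed in 11 HIV_Sal rats at 2.48 to 6.18 FPKM, with a median of 4.94, and in 9 HIV_Nic rats at 4.6 to 7.83 FPKM, with a median of 5.8. The groups overlapped, and the highest value was that of HIV_Nic rat 10. It rose by 0.38 ± 0.13 on the log2 scale (SE, p = 0.00697, adjusted p = 0.718 in limma), and without rats 10 and 11 by 0.33 ± 0.13 (p = 0.0159). The annotated transcript was listed at 0 in 10 of 12 HIV_Sal and 8 of 12 HIV_Nic rats, and the 3 HIV_Nic rats without the matched transcript, rats 1, 9, and 11, had it at 4.94, 5.17, and 5.48 FPKM. The locus total also holds further assembled transcripts in HIV_Sal rats 2, 4, and 12, and was 5.30 FPKM in rat 4 and 5.19 FPKM in rat 12, where the matched transcript was at 2.48 and 2.67. It averaged 5.499 ± 0.787 FPKM (SD, n = 12) in HIV_Sal and 5.88 ± 0.759 FPKM in HIV_Nic rats, with a median of 5.43 FPKM in HIV_Sal rats and 5.76 FPKM in HIV_Nic rats. For the locus total, nicotine minus saline was 0.10 ± 0.07 (log2, SE, p = 0.161), and without rats 10 and 11 it was 0.06 ± 0.06 (p = 0.314). The sum of the matched and the annotated transcript alone was not tested, and the other alternatives were not run for the matched transcript, which is outside the exactly matching set.

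Fgf9 encodes a fibroblast growth factor made by neurons. Its transcript ENSRNOT00000015367 ranged from 0.45 to 4.32 FPKM in HIV_Sal rats, with a mean of 1.96 ± 1.48 (SD, n = 12), and from 0.805 to 4.02 FPKM in HIV_Nic rats, with a mean of 2.73 ± 0.886. The log2 fold change of 0.78 ± 0.41 (SE) did not pass the threshold (p = 0.064), nor did that of 0.71 ± 0.44 without rats 10 and 11 (p = 0.11). It did pass with values near 0 and outliers removed (0.92, p = 0.00311), with median scaling (0.85, p = 0.0468), with FPKM multiplied by length (0.64, p = 0.0327), and without any 1 of HIV_Nic rat 8 and HIV_Sal rats 7, 10, 11, and 12 (0.85 to 0.92). The value was mostly higher where Cufflinks listed a shorter length for the transcript. In the 4 HIV_Sal and 6 HIV_Nic rats listed under 2500 bases, FPKM was 2.51 to 4.32 in the former and 2.94 to 4.02 in the latter. In the 8 HIV_Sal and 6 HIV_Nic rats listed at over 4000 bases it was 0.45 to 2.56 in the former and 0.805 to 2.833 in the latter, so that the values at short and long lengths overlapped in part. The locus total averaged 4.13 ± 2.24 FPKM (SD, n = 12) in HIV_Sal and 3.91 ± 1.83 FPKM in HIV_Nic rats, and its log2 fold change was -0.03 ± 0.29 (SE).

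Ephb1 encodes a receptor tyrosine kinase for ephrin B ligands. The transcript ENSRNOT00000010634 averaged 6.84 ± 0.534 FPKM (SD, n = 12) in HIV_Sal rats and 6.77 ± 1.36 FPKM in HIV_Nic rats, in which rats 10 and 11 were the lowest at 3.93 and 4.06 FPKM. The other 10 HIV_Nic rats averaged 7.32 ± 0.448 FPKM. The log2 fold change was -0.04 ± 0.10 (SE) with all rats and 0.10 ± 0.06 without rats 10 and 11 (p = 0.135), so that its sign depended on them. The range of 2 SE in the latter was -0.03 to 0.23.

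Cflar encodes cFLIP, an inhibitor of apoptosis through caspase-8. Its transcript ENSRNOT00000016730 had a median of 2.02 FPKM in HIV_Sal rats (0.859 to 2.55) and 1.68 FPKM in HIV_Nic rats (0.407 to 2.71). HIV_Nic rats 8 to 11 held the 4 lowest values, at 0.509, 0.612, 0.407, and 0.524 FPKM, and the other 8 lay between 1.21 and 2.71. The log2 fold change was -0.54 ± 0.25 (SE, p = 0.0363, adjusted p = 0.718 in limma) with all rats, and it lost the threshold without rats 10 and 11, at -0.29 ± 0.23 (p = 0.227). It also lost it in a fit of the 24 HIV-1Tg samples alone (p = 0.0836 in limma) and when any 1 of rats 8 to 11 was left out (-0.46 to -0.41). The threshold was lost too with a pseudocount of 1 (-0.30, p = 0.0536 in limma), median scaling (-0.47, p = 0.0501), and sample weights (-0.33, p = 0.161). It was kept, among other settings, with values near 0 and outliers removed (-0.64, p = 0.010 in limma). The locus total had a median of 5.57 FPKM in HIV_Sal and 5.71 FPKM in HIV_Nic rats, and its log2 fold change was -0.03 ± 0.08 (SE).

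**Figure D3:**
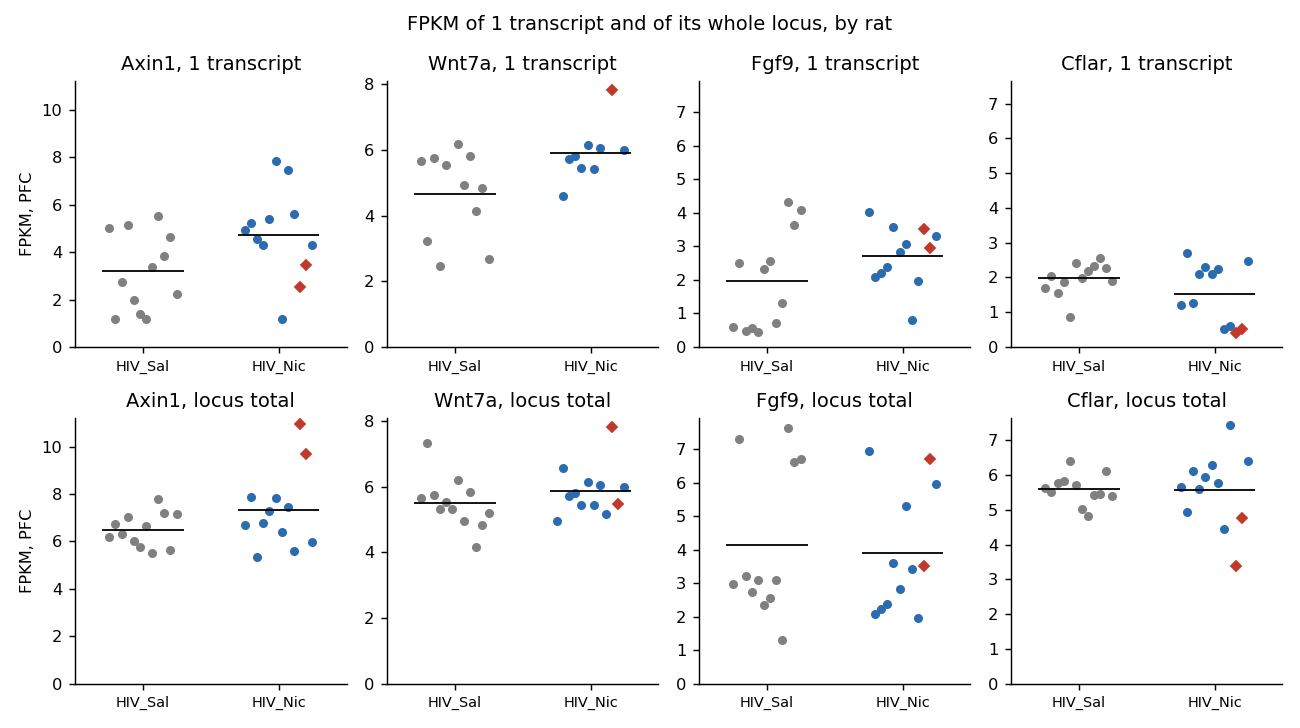
FPKM in the PFC of each HIV_Sal (gray) and HIV_Nic (blue, with rats 10 and 11 as red diamonds) rat for 1 transcript each of Axin1, Wnt7a, Fgf9, and Cflar in the upper row and for the locus total in the lower row, with a bar at the group mean. Rats in which a transcript is not listed are not drawn. The group means of Axin1 are 3.19 and 4.73 FPKM for the transcript and 6.49 and 7.33 FPKM for the locus.

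The other 3 transcripts did not pass in either set of rats. Mdh1, the cytosolic malate dehydrogenase of the malate-aspartate shuttle, had medians of 48.9 FPKM in HIV_Sal and 49.0 FPKM in HIV_Nic rats, and its log2 fold change was 0.16 ± 0.40 (SE). HIV_Sal rat 7 and HIV_Nic rat 8 stood far above the others at 354 and 364 FPKM, and in these 2 rats the transcript was listed at 1277 bases, against at least 2169 in the other rats. HIV_Nic rats 10 and 11 were next at 115 and 81.8 FPKM. Plch1, a phospholipase C of the eta class, was at 0 to 1.47 FPKM in HIV_Sal and 0 to 1.51 FPKM in HIV_Nic rats, with a log2 fold change of -0.03 ± 0.54 and of 0.07 ± 0.58 without rats 10 and 11. Rap1b, a small GTPase of integrin and synaptic signaling, was listed in 11 HIV_Sal and 10 HIV_Nic rats and changed by 0.08 ± 0.71 on the log2 scale (0.22 ± 0.77 without rats 10 and 11). For Mdh1 and Plch1, 2 SE exceeded the change of 0.61 seen for Axin1. For Rap1b the SE fell to 0.20 when only the 24 HIV-1Tg samples were fitted.

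Among the transcripts with a mean FPKM of at least 1 that passed both times, the 2 of smallest p that rose and the 2 that fell are given by identifier. ENSRNOT00000060920, of gene ENSRNOG00000006462, was between 0 and 7.49 FPKM in HIV_Sal rats, with 4 of 12 at 0 and a median of 4.94, and between 4.32 and 20.6 FPKM in HIV_Nic rats, with a mean of 12.5 ± 6.28 (SD, n = 12). HIV_Nic rats 10 and 11 were the lowest of their group, at 4.32 and 5.27 FPKM. The log2 fold change was 3.00 ± 0.62 (SE, p = 1.65e-05, adjusted p = 0.121 in limma), and without these rats it was 3.24 ± 0.66 (adjusted p = 0.0953). Its size rests in part on the values at 0, since it was 1.84 with a pseudocount of 1 and 0.82 with values near 0 and outliers removed. The listed length of this transcript ran from 1903 to 8292 bases among HIV-1Tg rats. Other transcripts of this gene were at 0 more often with nicotine. ENSRNOT00000064741 was listed at 0 in 2 HIV_Sal and 7 HIV_Nic rats, and ENSRNOT00000009404 in 3 and 9. The median share of ENSRNOT00000060920 in the locus total was 32.6% in HIV_Sal and 80.5% in HIV_Nic rats. The total averaged 15.1 ± 5.78 FPKM (SD, n = 12) and 17.4 ± 4.01 FPKM, and its log2 fold change of 0.67 did not pass (p = 0.139 in limma). The sum of exactly matching transcripts alone did pass, at 1.23 (p = 0.041 in limma). Both sizes rest in part on rats at 0. The total was 0 in HIV_Sal rat 1 and 11.3 to 21.0 FPKM in the other HIV_Sal rats. The exactly matching transcripts were all at 0 in HIV_Sal rats 1 and 5. The total and the sum were not fitted without these rats.

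ENSRNOT00000061338, of gene ENSRNOG00000039930, was the only transcript listed for its gene. It ranged from 0.672 to 4.19 FPKM in HIV_Sal rats, with a median of 2.88, and had a median of 4.00 FPKM in HIV_Nic rats. Rats 10 and 11 had the highest values, with rat 11 at 6.49 FPKM and rat 10 above it, and the transcript is about 710 bases long, in a class whose median was high in these rats. It rose by 0.82 ± 0.21 on the log2 scale (SE, p = 0.000392, adjusted p = 0.718 in limma) and by 0.62 ± 0.20 without them (p = 0.00331). The other 10 HIV_Nic rats averaged 3.90 ± 0.730 FPKM (SD) and the 12 HIV_Sal rats 2.73 ± 1.16 FPKM, and the groups overlapped.

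ENSRNOT00000019797, of gene ENSRNOG00000014745, had the smallest p of all transcripts. It was between 58.9 and 65.6 FPKM in the 12 HIV_Sal rats. HIV_Nic rats 1 to 6 were between 20.7 and 22.4 FPKM, and rats 7 to 12 were at 46.8, 65.9, 60.7, 22.9, 45.9, and 61.3 FPKM. The log2 fold change was -0.97 ± 0.19 (SE, p = 4.59e-06, adjusted p = 0.0676 in limma) and was -0.97 ± 0.19 without rats 10 and 11. Its adjusted p turned on the setting. In limma it was 0.0323 with a pseudocount of 1, 0.0481 with a mean FPKM of at least 1, 0.029 with sample weights, 0.0217 with a factor for rats 1 to 6, and 0.00153 with values near 0 and outliers removed, and with 1 rat left out it ran from 0.00713 to 0.226. It was 0.518 with the 24 HIV-1Tg samples alone and 0.656 with FPKM multiplied by length. In HIV_Nic rats 1 to 6 the transcript was listed at 2844 to 2850 bases, and in every other HIV-1Tg rat at 1236 bases. The same occurred in 2 F344_Nic rats, numbers 4 and 9, which were listed at 2852 and 2838 bases and were at about 22 to 23 FPKM. A low value also occurred without a longer listing, since HIV_Nic rat 10, at 22.9 FPKM, and F344_Sal rat 2, at 43.1 FPKM, were both listed at 1236 bases. FPKM divides by length, and when it was multiplied by the listed length the log2 fold change was -0.37 (p = 0.000282). In HIV-1Tg rats the transcript changed by -0.03 ± 0.06 in the HIP and -0.01 ± 0.11 in the STR.

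ENSRNOT00000051859, of gene ENSRNOG00000015390, averaged 12.7 ± 4.56 FPKM (SD, n = 12) in HIV_Sal rats, with a median of 13.7, and 5.17 ± 5.24 FPKM in HIV_Nic rats, with a median of 5.11, and the groups overlapped. HIV_Nic rats 1, 3, 10, and 11 were at 0, and the listed length ran from 3637 to 7119 bases among HIV-1Tg rats. Its level was 7.11-fold lower on the scale of the test (p = 8.53e-05, adjusted p = 0.328 in limma), a size that rests on the rats at 0, since the log2 fold change was -1.71 with a pseudocount of 1 and -0.97 with values near 0 and outliers removed. It fell by 2.01 ± 0.57 (log2, SE) without rats 10 and 11 (p = 0.00105). Another transcript of the gene, ENSRNOT00000021419, was listed at 0 in all 12 HIV_Sal rats and above 0 in 6 of 12 HIV_Nic rats, of which rats 1 and 3 were the highest at 15.8 and 16.3 FPKM. The locus total averaged 16.4 ± 1.61 FPKM (SD, n = 12) in HIV_Sal and 15.3 ± 2.14 FPKM in HIV_Nic rats, with a log2 fold change of -0.11 (p = 0.293), and of -0.02 without rats 10 and 11 (p = 0.856). The groups thus overlapped both for this transcript and for the gene total, and ENSRNOT00000021419 did not enter the test.

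**Figure D4:**
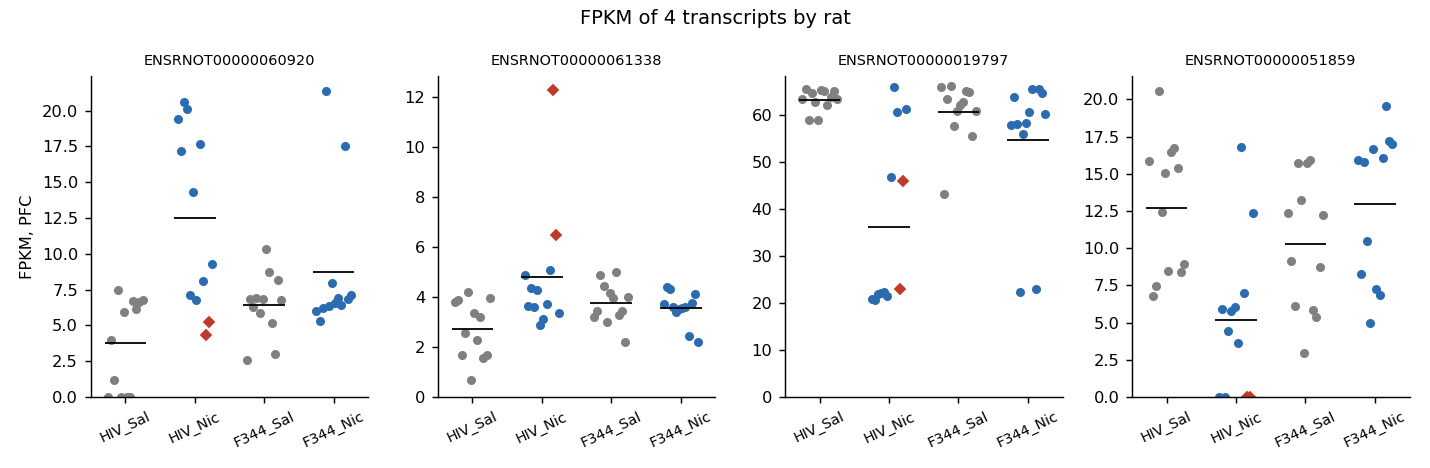
FPKM of 4 transcripts in the PFC of each rat in the 4 groups (12 rats each), with nicotine in blue, saline in gray, HIV_Nic rats 10 and 11 as red diamonds, and a bar at the group mean. HIV_Nic and HIV_Sal rats overlap for all 4, with ranges of 20.7 to 65.9 and 58.9 to 65.6 FPKM for ENSRNOT00000019797.

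The length that Cufflinks listed varied between rats for other transcripts too. It differed by more than 1.5 times among the 24 rats for 3992 of the 14715 tested transcripts, of which 4.66% were called without rats 10 and 11, against 3.91% of the other 10723. For 605 transcripts the median listed length was over 1.1 times shorter with nicotine, and 22 of these rose (3.64%) and 14 fell (2.31%). For 520 it was over 1.1 times longer, and 11 rose (2.12%) and 18 fell (3.46%). In all, 5.95% of the former and 5.58% of the latter were called, against 3.97% of the 13590 transcripts within 1.1 times.

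**Figure D5:**
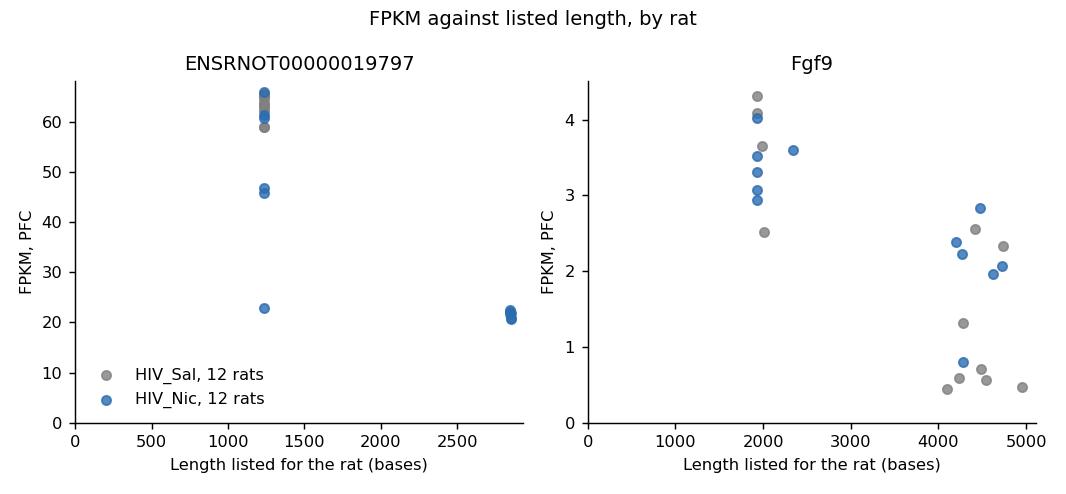
FPKM in the PFC (vertical axis) against the transcript length in bases listed for the same rat (horizontal axis) for ENSRNOT00000019797 and the Fgf9 transcript, with 1 point per HIV_Sal (gray) or HIV_Nic (blue) rat. The 6 HIV_Nic rats at 2844 to 2850 bases lie at 20.7 to 22.4 FPKM, and Fgf9 is at or above 2.51 FPKM in the rats listed under 2500 bases.

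Separation of the groups by single transcripts was rare. Among the 22 rats without HIV_Nic rats 10 and 11, the 2 groups did not overlap for 2 of 14715 tested transcripts, 1 of which was among the 375 that passed both times (2.55% of those tested). Of the 375, 267 had a mean FPKM of at least 1, as did 10447 of all 14715 tested.

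In F344 rats given the same treatment, 1525 of 14583 PFC transcripts (10.5%) passed the unadjusted threshold, with 411 (2.82%) higher and 1114 (7.64%) lower, and limma called 754 (5.17%) after adjustment. With median scaling 625 of 1545 were higher. Of the 190 that rose both times, 177 were tested in F344 rats and 48.6% were higher with nicotine there, and of the 185 that fell, 178 were tested and 49.4% were higher, against 47% of all transcripts tested in both strains. The difference between the nicotine effects of the strains was tested directly as an interaction. It had an unadjusted p under 0.05 for 1546 of 13659 transcripts (11.3%), and limma called 557 (4.08%) after adjustment. Without HIV_Nic rats 10 and 11 it called 614 (4.5%) after adjustment. Most of the 1546, namely 1110, had the more positive nicotine effect in HIV-1Tg rats, and of the 1101 transcripts tested in both strains that fell in F344 rats, 862 were under 1500 bases. The length classes under 1500 bases held 1839 and 3007 of the 13659.

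For single genes, the interaction of Axin1 was 0.57 ± 0.34 on the log2 scale (SE, p = 0.0998) and 0.68 ± 0.35 without rats 10 and 11 (p = 0.0563), and its transcript changed by 0.04 ± 0.24 in F344 rats. That of Fgf9 was 1.05 ± 0.58 (p = 0.076), and the transcript changed by -0.27 ± 0.41 in F344 rats. Neither passed, so a difference between the strains in the response of these transcripts was not shown. Rap1b had an interaction of 2.21 ± 1.06 (p = 0.0446, adjusted p = 0.419 in limma), and passed p under 0.05 without rats 10 and 11 too (p = 0.0429). In F344 rats it changed by -2.13 ± 0.79 (p = 0.0102, adjusted p = 0.155 in limma), but it was listed in 7 F344_Nic rats only, with 2 of them at 0, and would not have passed the filter there. The interaction of its locus total was 0.24 (p = 0.563). The Wnt7a interaction was 0.36 ± 0.18 (p = 0.0562), with a change of 0.02 ± 0.13 in F344 rats. Mdh1 rose in F344 rats, by 1.1699 ± 0.40 (log2, SE, p = 0.00566, adjusted p = 0.0969 in limma), and its interaction of -1.01 ± 0.57 did not pass (p = 0.0831). The 5 F344_Nic rats that were high, at 304 to 410 FPKM, were listed at 1277 or 1300 bases.

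In the other regions of HIV-1Tg rats, 683 of 14967 transcripts (4.56%) passed in the HIP, and the STR had 976 of 14939 (6.53%), and limma called 0 and 37 (0.248%) after adjustment. By p alone 895 HIP transcripts (5.98%) were under 0.05. HIP library 4 of HIV_Nic stood apart by length, with median deviations of 0.62 for the shortest and -0.79 for the longest transcripts, and without it 578 HIP transcripts (3.86%) passed. Of the transcripts called both times in the PFC, in the HIP 57% of the 179 that had risen and 94 of 173 that had fallen were higher with nicotine, against 56.1% of all. In the STR the shares were 50.3%, 41.2%, and 47.1%. There 9 of the 183 that had risen were called higher and 5 lower, against 329 and 581 of all 13383. Of the 170 that had fallen, 4 were called higher and 8 lower. In the HIP 6 of the 179 that had risen were called higher and 3 lower, against 404 and 243 of all 13388. Of the 173 that had fallen, 7 were called higher there and 5 lower. These differences were not tested. Axin1 changed by 0.58 ± 0.75 (SE) on the log2 scale in the HIP and 0.77 ± 0.62 in the STR, neither past the threshold, with rats at 0 in every group of both regions. Fgf9 changed by -0.50 ± 0.34 and -0.43 ± 0.40. Cflar, which fell in the PFC with all rats, changed by 0.30 ± 0.32 in the HIP and 0.32 ± 0.23 in the STR. Without HIP library 4 Cflar rose there, by 0.68 ± 0.19 (p = 0.00067 in limma), in a fit that called 0 transcripts after adjustment. Ephb1 rose in the STR, by 0.68 ± 0.29 (p = 0.024, adjusted p = 0.577 in limma), and changed by -0.05 ± 0.10 in the HIP. The study chose Cflar on these HIP samples and Ephb1 on these STR samples, so these rises are not independent evidence.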

How the data were processed

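RNA was sequenced from 12 HIV_Nic and 12 HIV_Sal PFC samples as 50-base paired-end reads. Alignment by the authors was to Rn4, with Tophat and Bowtie (version 1.04 in the submitters' processing notes) and transcripts were assembled and estimated with Cufflinks. The deposited tables pack several values into each cell, and the FPKM, listed length, and coverage were read from it (FPKM is normalized by length and mapped fragments by the authors). Where a cell held several assembled transcripts (0.33% of cells), FPKM was summed. Groups were taken from the labels, with 0 columns unused. Depth in reads is unknown, and no counting interval is given.

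Transcripts of class code = that exceeded an FPKM of 0.01 in 6 or more of the 12 rats of both groups were tested on log2(FPKM + 0.1) with limma 3.58.1 (R 4.3.3, trended prior) in a fit of all 48 PFC libraries in 4 groups. The study's methods name an ANOVA of strain and sex. The drug was used in place of sex, since all rats were male, and the Tukey-Kramer post-hoc test named there was not run. Missing values (0.803% of tested values) were left out of the fit, and the script was tested on simulated data. No 2 libraries were duplicates, with a highest correlation of 0.805 across transcripts.

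The tables hold no gene symbols and no map from Ensembl identifiers to symbols was used here, so the lists of nicotinic receptor, pathway, and cell type marker genes were not analysed here, and the tissue was not checked against its markers. Genes were identified by searching for a single transcript whose means and errors in all 4 groups equal, within 0.0051, the 8 numbers that the study states per gene, under 25 settings of averaging and outlier removal. Of 24 entries 9 matched, for 8 genes; the others, Wnt5a, Gnao1, and Mapk8ip2 of the PFC among them, have no values here. Transcripts named by identifier are the 2 that rose and the 2 that fell with smallest p among those past the threshold both times with a mean FPKM of at least 1. The members, lists, and tests were chosen with earlier results of these data known. Alternatives were a pseudocount of 1 or 0.01, a filter at a mean FPKM of 1 or none, rats 10 and 11 left out, each rat left out, only the 24 samples, median scaling, sample weights, removal of values near 0 and of outliers, sums per gene, missing values as 0, and a replicate block. The first transcript of a cell, FPKM times length, locus totals, a factor for rats 1 to 6, and a HIP fit without HIV_Nic library 4 were added after seeing the data. Whether the 12 samples of a group came from separate litters or dissection days is not given, so p-values measure the spread between these samples.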

Additional observations from a re-analysis of the deposited data

Results flagged for a closer look

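The nicotine effect differed between HIV-1Tg and F344 rats in the interaction test, at an unadjusted p under 0.05, for each of the 4 transcripts named by identifier, both with all rats and without HIV_Nic rats 10 and 11. These transcripts were chosen by their change in HIV-1Tg rats, so the differences are not independent of the choice. The difference of log2 fold changes was 2.63 for ENSRNOT00000060920 (p = 0.00452, adjusted p = 0.0928 in limma) and 2.87 without the 2 rats. It was 0.892 and 0.692 for ENSRNOT00000061338 (adjusted p = 0.102 and 0.233 in limma). For ENSRNOT00000019797 it was -0.750 and -0.752 (adjusted p = 0.129 and 0.134 in limma), and the transcript was listed at 2838 to 2852 bases in 6 HIV_Nic and 2 F344_Nic rats, while HIV_Nic rat 10 was equally low at 1236 bases. For ENSRNOT00000051859 it was -3.20 and -2.39, with adjusted p-values in limma of 0.0317 with all rats and 0.0874 without the 2 rats.

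Among the transcripts identified by gene, the Cflar difference was -0.814 with all rats (p = 0.0267, adjusted p = 0.318 in limma) and did not pass without rats 10 and 11 (p = 0.0909). The Ephb1 difference was 0.189 without rats 10 and 11 (p = 0.0396, adjusted p = 0.407 in limma), with a fold of 1.14 that is under the limit of 1.2, and with all rats its p was 0.734. The Rap1b difference was 2.21 with all rats and 2.347 without rats 10 and 11 (adjusted p = 0.419 and 0.425 in limma), from a transcript that was listed in 7 of 12 F344_Nic rats.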

How the results depend on the processing

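The count of 955 transcripts past the unadjusted threshold was 605 without HIV_Nic rats 10 and 11, 554 with locus totals without them, 1684 with no filter, and 1497 with values near 0 and outliers removed. Leaving out 1 rat at a time gave 622 to 1082, with the lowest count without HIV_Nic rat 10. The adjusted count of 0 became 2 with a pseudocount of 1, 1 with a mean FPKM of at least 1, with sample weights, or with a factor for rats 1 to 6, 27 with values near 0 and outliers removed together, and 0 to 1 with 1 rat left out. In F344 rats the count of 1525 became 2304 with no filter and 2419 with both of these removed, and the interaction count of 1546 became 2349 and 2612. Median scaling moved the median log2 fold change from 0.01 to 0.08, and 654 of 1004 calls were then higher, against 467 of 955, and in F344 rats 625 of 1545, against 411 of 1525. Ephb1 turned positive without rats 10 and 11 (0.10), with median scaling (0.029), sample weights (0.069), values near 0 and outliers removed (0.10), and locus totals (0.060, and 0.082 without the 2 rats), and lay between -0.072 and 0.023 with 1 rat left out. Plch1 turned positive with a pseudocount of 0.01 (0.16), without the 2 rats (0.070), with median scaling (0.043), sample weights (0.088), sums per gene (0.10), FPKM times length (0.11), and locus totals without the 2 rats (0.069), and lay between -0.23 and 0.17 with 1 rat left out. Rap1b turned negative with a replicate block (-0.10), missing values as 0 (-0.58), and locus totals (-0.32, and -0.25 without the 2 rats), Fgf9 with locus totals (-0.026 and -0.11), and Mdh1 lay between -0.068 and 0.40 with 1 rat left out. Cflar lay between -0.64 and -0.41 with 1 rat left out and was 0.058 with locus totals without rats 10 and 11. The cause of these changes was not tested.

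Same-numbered samples did not deviate together, with correlations of -0.02 to 0.03 over 12 pairs, so the replicate number was not taken as a pairing. With the replicate block 936 transcripts passed the unadjusted threshold and 0 the adjusted one, against 1533 in F344 rats and 1542 for the interaction. The gene lists planned were not run, for want of symbols.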
